A study of Saccharomyces cerevisiae with 30 samples.

Results

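The mitochondrial carrier family is a set of related yeast transporters of the inner mitochondrial membrane, and its 33 genes were taken by name or systematic ID from the 5890 genes listed for every library. Of these 33 genes, 32 were among the 5286 genes tested, and SFC1, the succinate-fumarate carrier, was not tested because its mean input count was 19.7, under the minimum of 20. The members lie on 14 chromosomes. Carriers exchange metabolites, nucleotides, cofactors and inorganic ions between the cytosol and the matrix. They are made on cytosolic ribosomes, most of them without a cleaved N-terminal presequence, and are guided through the outer membrane by the Tom70 receptor and the Tom40 pore, through the intermembrane space by small Tim chaperones, and into the inner membrane by the TIM22 complex. The signal recognition particle (SRP) is a cytosolic ribonucleoprotein that binds hydrophobic segments of nascent proteins and brings their ribosomes to the endoplasmic reticulum (ER).

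The assay was proximity-specific ribosome profiling in Saccharomyces cerevisiae. A biotin ligase (BirA) fused to a membrane protein marks nearby ribosomes whose Rpl16a and Rpl16b proteins carry an acceptor tag, and the footprints of streptavidin-purified ribosomes (pulldown) are set against those of all ribosomes of the culture (input). All strains carried Srp72, a subunit of SRP, with an auxin-inducible degron and an HA tag, the OsTIR1 F-box protein that auxin needs for degradation, and HA-TEV-AVI tags on both Rpl16 proteins. The mitochondrial baits were Tom20-mVenus-BirA, in a W303 strain with the alleles ade2-1, can1-100, his3-11,15, leu2-3, 112, trp1-1 and ura3-1, and Om45-mVenus-BirA, in an S288C derivative with the alleles met15-delta-0, leu2-delta-0 and ura3-delta-0. The degron allele was marked with LEU2 and the tagged Sec63, Om45 and Tom20 loci with HIS5, and OsTIR1-V5 stood at his3 with URA3 in the Sec63 and Om45 strains. The ER baits were in S288C derivatives with the same delta alleles: Sec63-mVenus-BirA, and BirA-mVenus on the Ubc6 tail anchor, expressed from the SEC63 promoter at his3. Cells grew in synthetic medium with 0.125 ng/ml biotin. Auxin (500 µM) was given for 30 min, against 0 min, in the Tom20 and Om45 series, and for 0, 15, 30 and 60 min at the ER baits Sec63 and Ubc6. In these 4 series cycloheximide (CHX, 100 µg/ml for 2 min), which stalls ribosomes, preceded a 2 min pulse of 10 nM biotin. In a further Sec63 series of 0, 30 and 60 min, cells had no CHX and a 1 min pulse. Each combination of series and time was 1 input and 1 pulldown, which gave 15 pairs and 30 libraries, and 0 min cultures of the same strains are the reference for each auxin time.

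Pulldowns held between 4863970 and 103495224 counts over the listed genes (median 19701861) and inputs between 2041786 and 113497242 (median 21993608). The 0 min pair of the Ubc6 series was the shallowest of all. In the Sec63 series with CHX the 30 min pair held 65536541 pulldown and 101211562 input counts, against 13440683 and 11113231 at 0 min. MET17, deleted as met15 in the S288C derivatives, had at least 10169 counts in all 4 Tom20 libraries and at most 4 counts in any other library. The 6 SRP substrates used as a check (DAP2, PHO8, TCB1, SEC61, SEC63 and HRD1) were all lower at mitochondrial than at ER baits at 0 min, and the ER enrichment of all 6 fell at 30 and at 60 min of auxin (edgeR, adjusted p between 8.58e-06 and 0.000472). Of these genes, SEC63 is also the tagged bait gene in the Sec63 series. No condition had a replicate library, so p-values measure consistency between series and not between cultures. The comparisons of Ubc6 with Sec63 and of CHX with none each set a single series against another. Their p-values measure only consistency over matched times.

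The carriers spanned a wide range of whole-cell ribosome occupancy. By the deposited RPKM, which are per length and can be set between genes, the median over the 5 inputs at 0 min was 702 for PET9, the main ADP/ATP carrier, with a range of 419 to 1386. MIR1, the main phosphate carrier, followed with a median of 552 RPKM (348 to 1039), and the ranges of these genes overlapped. YHM2, a citrate and oxoglutarate carrier, had a median of 248 RPKM, GGC1, the GTP/GDP carrier, 116, and DIC1, the dicarboxylate carrier, 115. GGC1 and DIC1 could not be ordered, since their ranges of 67.3 to 261 and 48.6 to 130 overlapped. At the low end stood AAC1, a minor ADP/ATP carrier (2.74 RPKM), CRC1, the carnitine carrier (1.17 RPKM), and SFC1 (0.28 RPKM). PET9, MIR1, YHM2, GGC1 and DIC1 together supplied between 65.4 and 82.2% of all carrier counts in the inputs. The whole family made up 1.12 to 2.80% of the counts in the 4 mitochondrial pulldowns, 0.0680 to 0.262% in the 11 ER pulldowns and 0.158 to 0.360% in the 15 inputs.

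**Figure D1:**
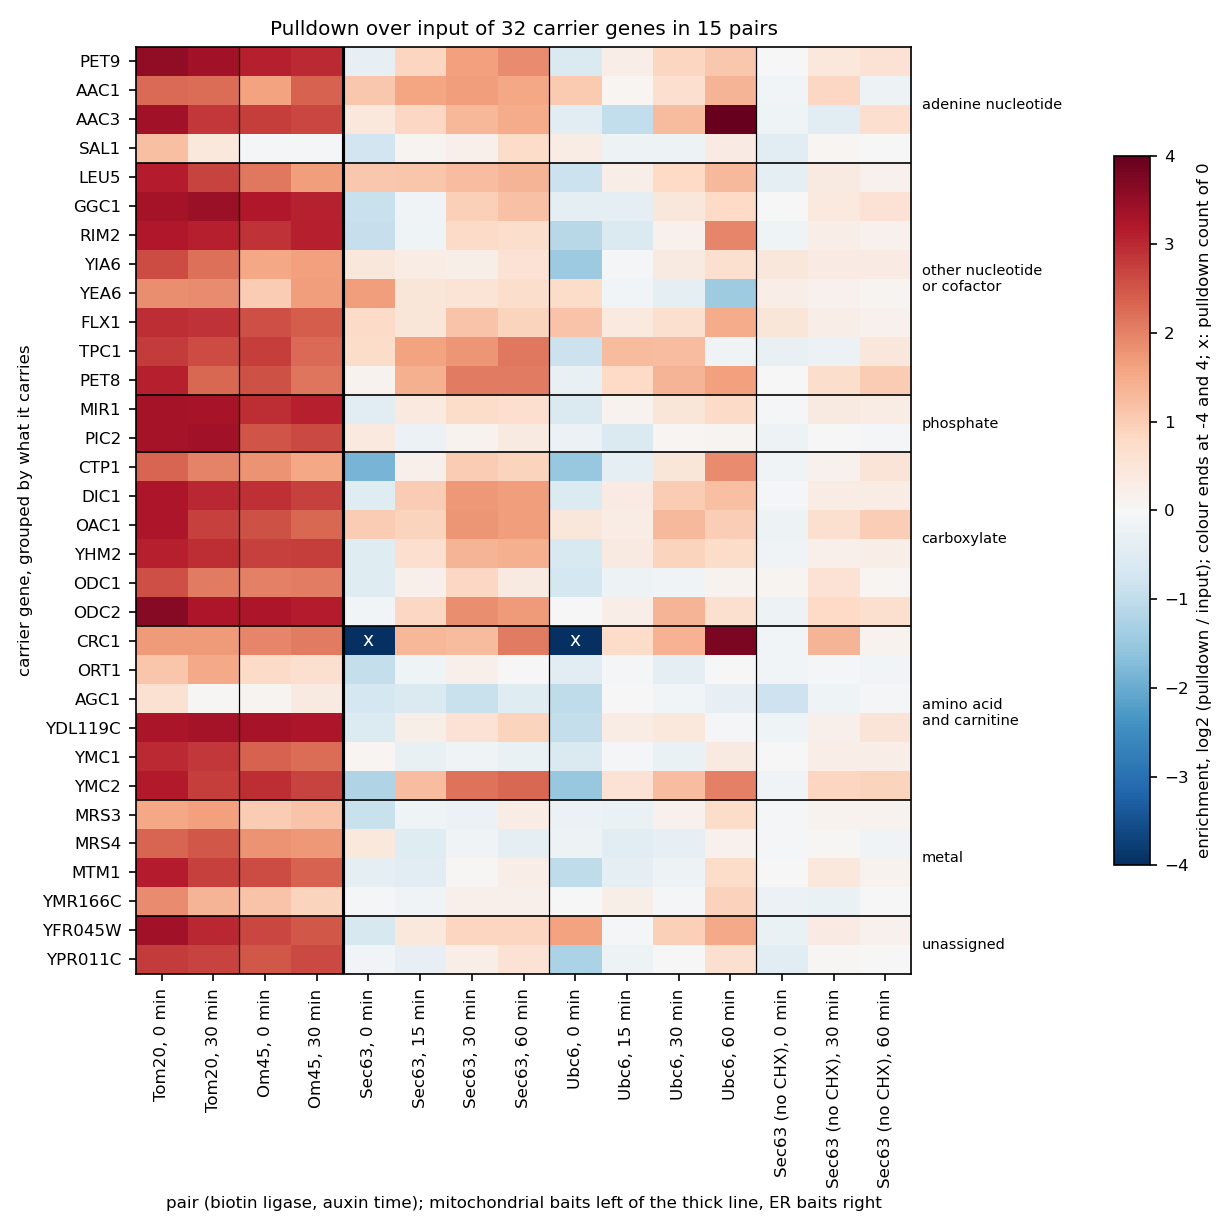
Enrichment (log2 pulldown over input, TMM-scaled) of 32 carrier genes (rows, grouped by what they carry) in 15 pairs (columns). The 4 mitochondrial columns on the left are red for nearly all genes, and the 3 ER columns at 0 min are pale or blue for most, while the later ER columns turn red for a part of the genes; CRC1 had a pulldown count of 0 in the 2 cells marked x.

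The comparison of mitochondrial with ER baits at 0 min asks where the ribosomes that make carriers were before SRP was removed. Enrichment stands for log2 of pulldown over input counts in 1 pair, after scaling by trimmed means (TMM). The footprints of 27 of the 32 tested carriers were more enriched at mitochondrial than at ER baits, and those of none were less enriched (edgeR, adjusted p under 0.05), against 10.8% of all genes tested that were higher and 9.48% that were lower. The median difference over the 32 carriers was 2.83, against 0.05 over all genes tested. The median enrichment of the family was 3.05 at Tom20 and 2.52 at Om45, against -0.35 at Sec63 with CHX, -0.57 at Ubc6 and -0.12 at Sec63 without CHX.

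YMC2, a putative transporter linked to amino acid metabolism, on chromosome II (449667 to 450656 in sacCer3), had enrichments of 3.16 at Tom20 and 2.95 at Om45, against -1.20 at Sec63 with CHX, -1.53 at Ubc6 and -0.13 at Sec63 without CHX. Its mitochondrial values lay above all ER values, and the fitted difference was 3.91 ± 0.39 (log2 ± SE, edgeR, adjusted p = 0.0023). YDL119C (HEM25, chromosome IV, 246689 to 247612), the glycine carrier of heme synthesis, had 3.26 and 3.29 at the mitochondrial baits, against -0.56, -0.94 and -0.16 at the ER baits in the same order. Here too the groups did not overlap, with a difference of 3.74 ± 0.27 (edgeR, adjusted p = 0.00154). RIM2, a pyrimidine nucleotide carrier (chromosome II, 607652 to 608785), differed by 3.69 ± 0.31 (edgeR, adjusted p = 0.00163), and GGC1 (chromosome IV, 103649 to 104551) by 3.62 ± 0.32 (edgeR, adjusted p = 0.00179).

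PET9 (chromosome II, 163041 to 163997) had enrichments of 3.56 at Tom20 and 3.10 at Om45, against -0.33, -0.59 and -0.01 at the ER baits, again without overlap, and a difference of 3.58 ± 0.35 (edgeR, adjusted p = 0.00208). PET9, AAC1 and AAC3 encode closely related ADP/ATP carriers, and how reads that match more than 1 of them were counted is not given in the sources used here, so the values of the less abundant AAC1 and AAC3 are uncertain. AAC3, the isoform of oxygen-poor cells, differed by 3.03 ± 0.40 (edgeR, adjusted p = 0.00533). AAC1 had 2.28 and 1.60 at the mitochondrial baits, against 1.07, 1.05 and -0.10 at the ER baits, and its difference of 1.26 ± 0.59 was not past the threshold (edgeR, adjusted p = 0.249).

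By what they carry, all 6 tested carboxylate carriers, all 4 metal carriers and both phosphate carriers were more enriched at mitochondrial baits, with median differences of 3.17, 1.79 and 3.15. Of the other groups, 5 of 6 amino acid and carnitine carriers, 6 of 8 carriers of other nucleotides or cofactors, 2 of 4 adenine nucleotide carriers and both unassigned carriers passed. Among them LEU5, needed for coenzyme A in the matrix, had a difference of 2.55 ± 0.64, FLX1, needed for matrix FAD, 1.96 ± 0.34, and ORT1, the ornithine carrier, 1.37 ± 0.29. The 27 differences that passed ranged between 1.14 and 3.91. The 5 carriers that did not pass were AAC1, SAL1, YIA6, YEA6 and CRC1. SAL1, a calcium-dependent ATP-Mg/phosphate carrier, had 1.19 at Tom20 and -0.04 at Om45, against -0.77, 0.31 and -0.45 at the ER baits, so that its groups overlapped. YEA6, an NAD+ carrier, had 1.86 and 1.03, against 1.67, 0.72 and 0.27, also with overlap, and its paralog YIA6 had 2.62 and 1.54, against 0.46, -1.45 and 0.46, without overlap. CRC1 had pulldown counts of 71 and 425 at the mitochondrial baits, against 0, 0 and 10 at the ER baits, where the inputs held 20, 2 and 9 counts, so its ER ratios rest on almost no counts.

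AGC1, the aspartate-glutamate carrier, passed with a small difference of 1.14 ± 0.30 (edgeR, adjusted p = 0.0447), and its own enrichment at the mitochondrial baits was only 0.61 at Tom20 and 0.12 at Om45. AGC1 and SAL1 are the longest members, with coding lengths of 2709 and 1485 bases, and carry an extension before the carrier fold. Across the 32 genes, mean mitochondrial enrichment at 0 min and coding length had a Pearson's r of -0.56 and a Spearman's rho of -0.29, as a description over genes of the same libraries. Enrichment at Tom20 and at Om45 at 0 min ranked the carriers alike (r = 0.94, rho = 0.89, 32 genes), and 30 of 32 carriers had the higher value at Tom20, with a median gap of 0.52. Of all genes tested 54.3% had the higher value at Tom20, with a median gap of 0.04. So did 14 of 16 genes of the carrier import route (median 0.16) and 18 of 30 inner membrane and matrix proteins with a presequence (median 0.19). The largest gap among the carriers was that of SAL1 (1.23). The strain differs between these baits too, so bait and strain cannot be told apart, for SAL1 as for the others.

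The count of carriers that passed depended on the series left out, while the size of the difference changed less. Without the Tom20 series 8 carriers passed with a median difference of 2.45 over all 32, without Om45 15 with a median of 3.11, and without Ubc6 18 with a median of 2.76. Without the Sec63 series with CHX 28 passed (median 3.03), and without the Sec63 series that lacks CHX 25 (median 2.68). All of them were higher at mitochondrial baits. In the same order, 221, 308, 458, 602 and 558 of all genes tested were higher, and 0, 8, 8, 656 and 889 lower. Over all genes tested, 571 were higher and 501 lower with TMM scaling, and 496 and 237 when scaled on glycolysis and translation factor genes, which called 22 carriers. Of 30 inner membrane and matrix proteins with a presequence, 25 were higher at mitochondrial baits and none lower, with a median difference of 2.95. Of 16 genes of the carrier import route, 6 were higher, namely TOM70 and TOM71, which bind carriers in the cytosol, TOM40, TOM20, TIM54 and TIM18. TOM20 is also the tagged bait gene of the Tom20 series. The differences were 3.95 for TOM70, 4.03 for TOM71, 3.97 for TIM54 and 3.42 for TIM18, while the small Tim chaperones TIM8, TIM9, TIM10, TIM12 and TIM13 lay between -0.49 and 0.18 and did not pass. Carrier-fold proteins outside the inner membrane did not pass either: ANT1, of peroxisomes, had a difference of -1.48 ± 0.65 (edgeR, adjusted p = 0.221) and UGO1, of the outer membrane, 0.75 ± 0.32 (edgeR, adjusted p = 0.193).

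**Figure D2:**
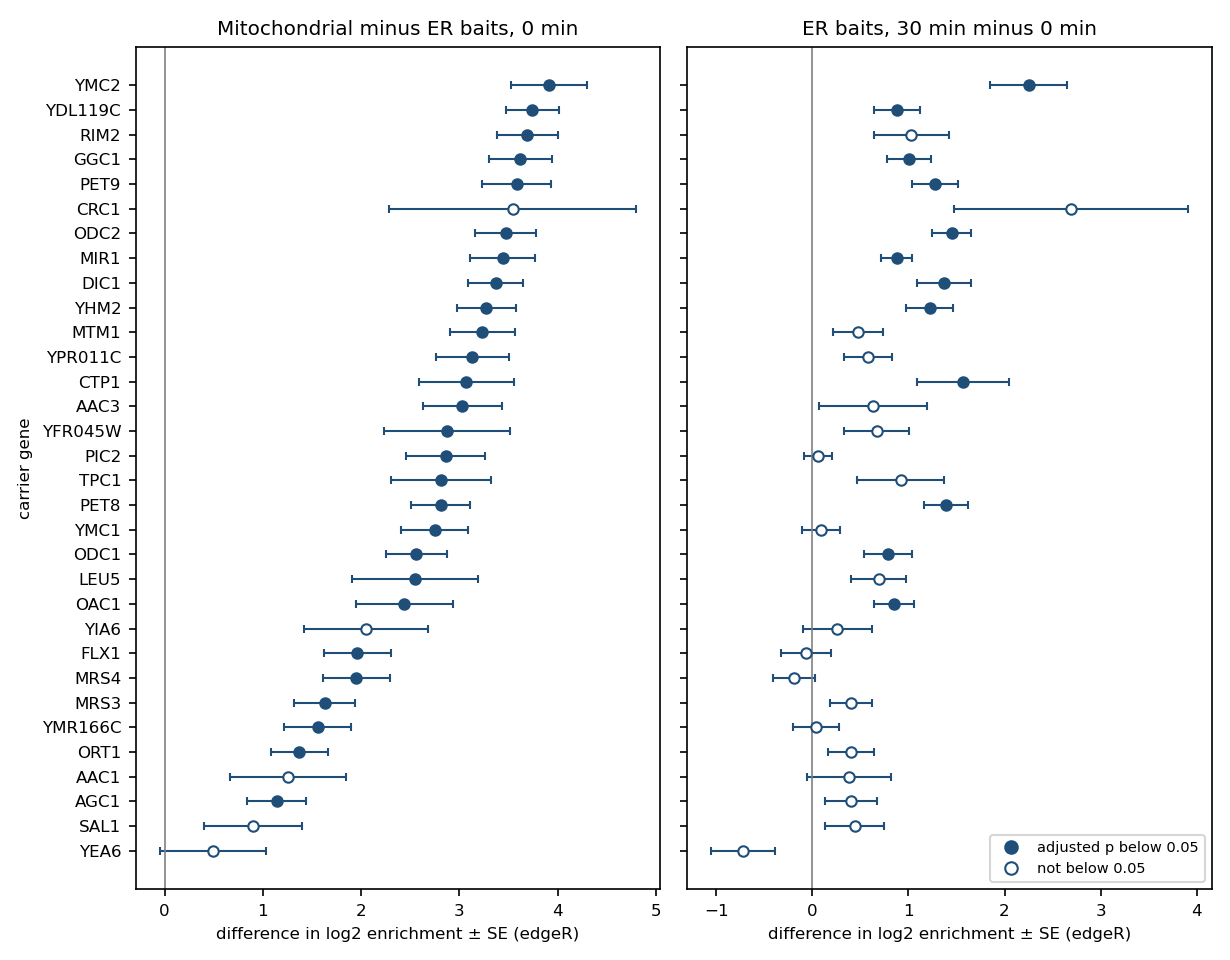
Fitted differences in log2 enrichment ± SE for the 32 tested carriers (rows): mitochondrial minus ER baits at 0 min (left) and 30 min minus 0 min of auxin at ER baits (right). All 32 values on the left lie above 0, with 27 filled points (adjusted p under 0.05), and 12 filled points on the right lie above 0.

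The next comparisons ask how ER enrichment changed as SRP was depleted. At 30 min of auxin, 12 of 32 carriers had risen in ER enrichment relative to 0 min and none had fallen (edgeR, 3 ER series), against 8.85% of all genes tested that rose and 11.5% that fell. The median change of the 32 carriers was 0.68, against 0.15 for all genes tested and 0.24 for the 30 presequence proteins, of which 2 rose. Of the 16 import route genes 7 rose (median 0.34), so that the share of carriers that rose was not above theirs. All 6 tested carboxylate carriers were among the 12 (CTP1, ODC2, DIC1, YHM2, OAC1 and ODC1), with PET9, MIR1, GGC1, PET8, YDL119C and YMC2, and none of the 4 metal carriers was. All 12 were higher at 30 than at 0 min in 3 of 3 ER series.

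YMC2 had ER enrichments of -1.20, 1.23, 2.16 and 2.29 at 0, 15, 30 and 60 min at Sec63 with CHX. At Ubc6 its values were -1.53, 0.58, 1.24 and 2.00 at the same times, and at Sec63 without CHX they were -0.13, 0.86 and 0.89 at 0, 30 and 60 min. Every later value was above the 0 min value of its own series, and the change at 30 min was 2.25 ± 0.40 (edgeR, adjusted p = 0.00184).

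CTP1, the citrate carrier (chromosome II, 783673 to 784572), had -1.87, 0.19, 1.01 and 0.89 at Sec63 with CHX, -1.53, -0.39, 0.49 and 1.90 at Ubc6, and -0.15, 0.18 and 0.53 at Sec63 without CHX. It was higher than at 0 min at all later times, and the change at 30 min was 1.57 ± 0.48 (edgeR, adjusted p = 0.0403). Its counts in the 0 min pairs of the ER series with CHX were low, with 19 in the pulldown and 136 in the input at Sec63 and 14 and 29 at Ubc6.

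ODC2, an oxodicarboxylate carrier (chromosome XV, 758330 to 759253), had enrichments of -0.12, 0.82, 1.85 and 1.69 at Sec63 with CHX, 0.01, 0.27, 1.36 and 0.64 at Ubc6, and -0.20, 0.80 and 0.64 at Sec63 without CHX. Its change at 30 min was 1.45 ± 0.20 (edgeR, adjusted p = 0.000419), and its highest value in each ER series was the one at 30 min. PET8, the S-adenosylmethionine carrier (chromosome XIV, 624975 to 625829), had 0.14, 1.43, 2.09 and 2.08 at Sec63 with CHX, -0.30, 0.79, 1.35 and 1.65 at Ubc6, and -0.01, 0.70 and 1.02 at Sec63 without CHX. The change of PET8 at 30 min was 1.39 ± 0.23 (edgeR, adjusted p = 0.00109). DIC1 (chromosome XII, 826977 to 827873) changed by 1.37 ± 0.28 (edgeR, adjusted p = 0.00477), with 2.18, 1.58 and 0.39 in the Sec63 series with CHX, the Ubc6 series and the Sec63 series without CHX.

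The most abundant carriers, PET9 and MIR1, with at least 1069 counts in every library, moved the same way. PET9 had ER enrichments of -0.33, 0.87, 1.64 and 1.88 at Sec63 with CHX, -0.59, 0.25, 0.86 and 1.08 at Ubc6, and -0.01, 0.41 and 0.59 at Sec63 without CHX, each later value being the higher one within its series (30 min change 1.28 ± 0.24, edgeR, adjusted p = 0.00254). MIR1 (chromosome X, 577255 to 578190) rose by 0.88 ± 0.16 (edgeR, adjusted p = 0.00234), with 1.13, 1.07 and 0.44 in the 3 series. Even at 30 and 60 min, PET9 at the ER baits stayed below 2, against 2.98 or more in each of its 4 mitochondrial pairs.

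**Figure D3:**
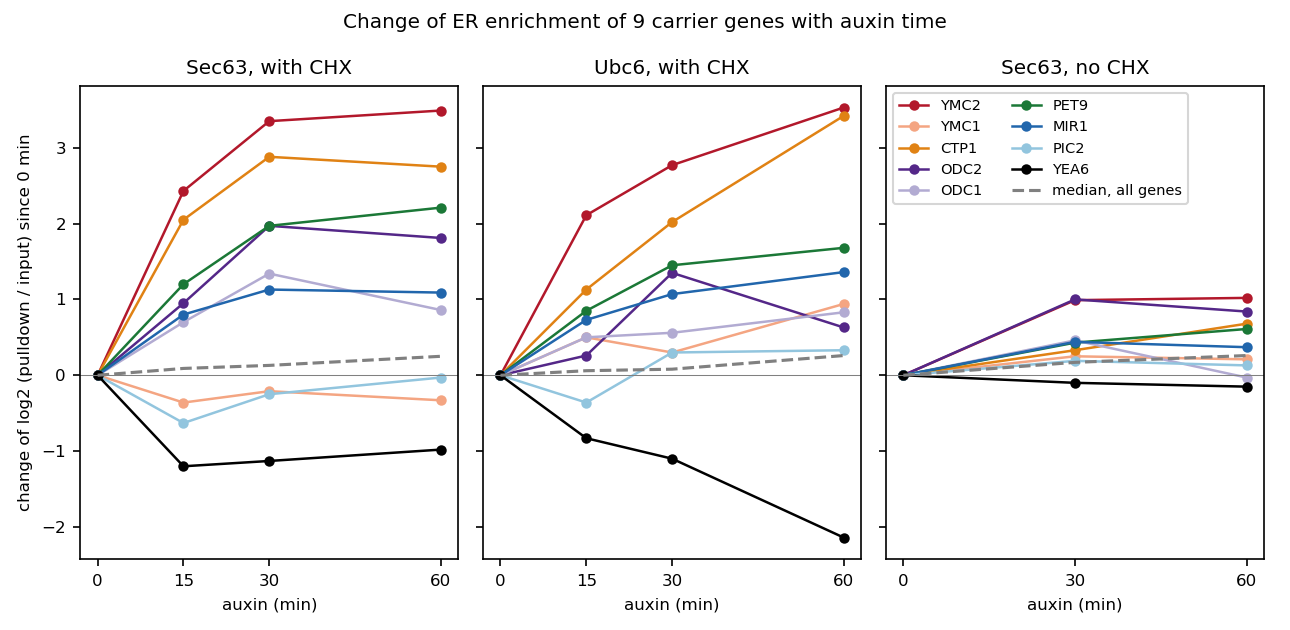
Change of log2 pulldown over input since 0 min (vertical axis) against minutes of auxin (horizontal axis) for 9 carrier genes at Sec63 with CHX, Ubc6 with CHX and Sec63 without CHX, 1 pair per point. YMC2 reached 3.35, 2.77 and 0.99 at 30 min in the 3 panels, YEA6 lay below 0 in all, and the dashed line is the median of all 5286 genes tested.

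The size of the rises differed between the ER series. The median change of the carriers at 30 min was 0.99 at Sec63 with CHX and 0.98 at Ubc6, against 0.43 at Sec63 without CHX, where the median of all genes was 0.17. The ratio of pulldown to input can rise through either level. In TMM-scaled CPM, which are counts relative to the scaled library size, YMC2 at Sec63 with CHX had 61.9 in the pulldown at 30 min, against 13.4 at 0 min, and 13.8 in the input at 30 min, against 30.8 at 0 min. Without CHX its pulldown had 28.5 CPM at 30 min, against 31.0 at 0 min, while its input had 15.7 at 30 min, against 34.0 at 0 min. PET9 without CHX likewise had 715 CPM in the pulldown at 30 min, against 716 at 0 min, and 537 in the input at 30 min, against 722 at 0 min. Of the 12 carriers that rose, all 12 had a higher pulldown level at 30 than at 0 min at Sec63 with CHX and at Ubc6, and 8 had at Sec63 without CHX. Among all 32 tested carriers, 27, 27 and 23 had a higher pulldown level in the same order. The input level was lower at 30 than at 0 min for 8, 10 and 9 of the 12, and for 20, 21 and 17 of the 32. It was also lower for 2832, 2870 and 3149 of all 5286 genes tested, so the input counts are not read as particular to the carriers. The pulldown level was not counted over all genes. The 12 were picked for a rising ratio, so their counts are partly built in.

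The calls at 30 min needed both ER series with CHX, in each of which the 0 min pair was also the shallowest of its own series. Without the Sec63 series with CHX 1 carrier passed, without the Ubc6 series 1, without the Tom20 series 8 and without the Om45 series 8; the part of depth was not tested. With each of these series left out, the median change of the 32 carriers was 0.42, 0.56, 0.60 and 0.59 in the same order. Of all genes tested, 66, 131, 197 and 198 then rose, and 450, 519, 607 and 607 fell. Scaled by library totals 20 carriers rose, as did 1603 of all genes while 550 fell. Scaled on glycolysis and translation factor genes 9 carriers rose, against 179 of all genes that rose and 683 that fell, where TMM scaling gave 468 and 608.

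At 15 min, when 2 ER series were sampled, none of the 32 carriers passed in edgeR, as for all genes (0% called). An unadjusted p under 0.05 was found for 8 carriers, against 885 of all 5286 genes tested, while DESeq2 called 1 carrier. YMC2 had the smallest p, with a change of 1.63 ± 0.46 (edgeR, adjusted p = 0.167), followed by PET8 with 0.89 ± 0.26 (edgeR, adjusted p = 0.168) and MIR1 with 0.59 ± 0.19 (edgeR, adjusted p = 0.181). Without the Sec63 series that lacks CHX, 6 carriers passed at 15 min, and of all genes tested 91 rose and 235 fell. With DESeq2, 65 of all genes rose and 81 fell.

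At 60 min 16 carriers had risen in ER enrichment and 1 had fallen (edgeR), against 23.1% and 12.3% of all genes tested, with a median change of 0.82 for the carriers and 0.29 for all genes. The largest rises were those of YMC2 (2.48 ± 0.41, edgeR, adjusted p = 0.000898), CTP1 (1.92 ± 0.49, edgeR, adjusted p = 0.0117), PET8 (1.57 ± 0.23, edgeR, adjusted p = 0.000296), PET9 (1.49 ± 0.24, edgeR, adjusted p = 0.000695) and RIM2 (1.45 ± 0.40, edgeR, adjusted p = 0.0163). Of the presequence proteins 19 of 30 rose at 60 min, with a median of 0.45, and of the import route genes 10 of 16, so that the share of carriers that rose was not above theirs. MRS3, an iron carrier, and MTM1, needed for active manganese superoxide dismutase in the matrix, were among the 16. Without the Sec63 series with CHX 2 carriers passed at 60 min, without Ubc6 3, without Tom20 10 and without Om45 10. The median change of the 32 carriers was 0.38, 0.66, 0.67 and 0.66 in the same order. Of all genes tested, 64, 160, 275 and 274 then rose, and 564, 559, 658 and 659 fell. Scaled on glycolysis and translation factor genes 7 carriers rose and 1 fell, against 131 of all genes tested that rose and 869 that fell. TMM scaling gave 1220 and 649 of all genes, and DESeq2 341 and 763.

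YEA6 (chromosome V, 144327 to 145334) was the carrier that fell. Its ER enrichment was 1.67, 0.47, 0.54 and 0.69 at Sec63 with CHX, 0.72, -0.11, -0.38 and -1.42 at Ubc6, and 0.27, 0.17 and 0.12 at Sec63 without CHX, below the 0 min value at every later time. The change at 60 min was -0.97 ± 0.32 (edgeR, adjusted p = 0.0374), with -0.98, -2.14 and -0.15 in the 3 series. The fall was not called without Ubc6 (-0.70, edgeR, adjusted p = 0.181) or without the Sec63 series with CHX (-1.31, edgeR, adjusted p = 0.121), and was -1.47 without the Sec63 series that lacks CHX. From 30 to 60 min no carrier changed in edgeR, as no gene did (0% called). None of the 32 had an unadjusted p under 0.05, against 358 of all 5286 genes tested, while DESeq2 called 0 carriers too. The smallest p belonged to MRS3 (0.36 ± 0.21), ODC2 (-0.34 ± 0.20) and YMR166C (MME1), a magnesium exporter (0.35 ± 0.22), with edgeR adjusted p of 0.694, 0.698 and 0.705.

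Related carriers are set side by side here for their change at the ER, and the difference between genes was not tested. YMC1 and YMC2 are paralogs with unlike changes at 30 min: YMC2 had 3.35, 2.77 and 0.99 in the Sec63 series with CHX, the Ubc6 series and the Sec63 series without CHX, and YMC1 had -0.21, 0.30 and 0.25. MIR1 rose, while PIC2, which carries phosphate and copper, had a change of 0.06 ± 0.15. Both ODC2 and ODC1 rose, by 1.45 and 0.79 in the fit. For the iron carriers the change at 30 min was 0.40 ± 0.22 for MRS3 and -0.19 ± 0.22 for MRS4, and for the NAD+ carriers it was 0.26 ± 0.36 for YIA6 and -0.72 ± 0.33 for YEA6, none of them past the threshold. PET9 rose, AAC3 had 0.63 ± 0.56 and AAC1 0.38 ± 0.44.

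Among the genes of the import route, 7 of 16 rose in ER enrichment at 30 min and none fell, against 8.85% and 11.5% of all genes tested. They included TOM71 (1.47), TOM20 (1.11), TIM18 (0.90) and TIM54 (0.73). ANT1 and UGO1 had changes of -0.58 and -0.16 and did not pass.

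Enrichment at mitochondrial baits was compared at 30 and 0 min in the Tom20 and Om45 series. No carrier passed the test in edgeR, against 0.927% of all genes that rose and 0.114% that fell. An unadjusted p under 0.05 was found for 1 carrier, against 345 of all 5286 genes tested. DESeq2 also called no carrier. The median change over the 32 carriers was -0.15, against 0.06 for all genes. The smallest p was that of PET8, with enrichments of 2.31 at 30 min and 3.11 at 0 min at Tom20, and 2.15 and 2.54 at Om45, a change of -0.59 ± 0.25 (edgeR, adjusted p = 0.636). OAC1, a carrier of oxaloacetate and sulfate, had a change of -0.36 ± 0.22 and YMR166C one of -0.41 ± 0.25 (edgeR, adjusted p = 1 for both). PET9 had 3.37 and 2.98 at 30 min, against 3.56 and 3.10 at 0 min.

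The difference of these changes, mitochondrial minus ER at 30 min, was below 0 for 29 of 32 carriers and passed the test for 7, all lower, against 2.59% of all genes that were lower and 10.6% that were higher. The median difference was -0.90, against -0.11 for all genes, whose signs were not counted. Of the import route genes 14 of 16 were below 0 too (median -0.33), and 2 passed as lower. Of the presequence proteins 21 of 30 were below 0 (median -0.21), and 4 passed as lower. YMC2 had changes of -0.39 at Tom20 and -0.26 at Om45, against 3.35, 2.77 and 0.99 at the ER baits, a difference of -2.58 ± 0.60 (edgeR, adjusted p = 0.0128). PET8 had -0.79 and -0.39, against 1.95, 1.65 and 0.71, a difference of -1.97 ± 0.33 (edgeR, adjusted p = 0.00211). In both genes the mitochondrial and the ER changes did not overlap.

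ODC2 differed by -1.69 ± 0.31 (edgeR, adjusted p = 0.00354), DIC1 by -1.56 ± 0.44 (edgeR, adjusted p = 0.0348) and PET9 by -1.44 ± 0.38 (edgeR, adjusted p = 0.0246). The remaining 2 were YHM2 and OAC1, with -1.30 and -1.21. CTP1 had a difference of -1.88 ± 0.69 and did not pass (edgeR, adjusted p = 0.122). Without the Tom20 series none of the 32 passed, without Om45 2, without the Sec63 series with CHX 2, without Ubc6 3, and without the Sec63 series that lacks CHX 12. Of all genes tested, 18, 43, 55, 64 and 195 were lower in the same order, and 218, 426, 374, 492 and 612 higher. The differences themselves kept most of their size without Tom20, with -2.43 for YMC2 and -1.68 for PET8 (edgeR, adjusted p = 0.131 and 0.0592). With library totals 468 of all genes were higher and 271 lower, against 561 and 137 with TMM scaling.

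**Figure D4:**
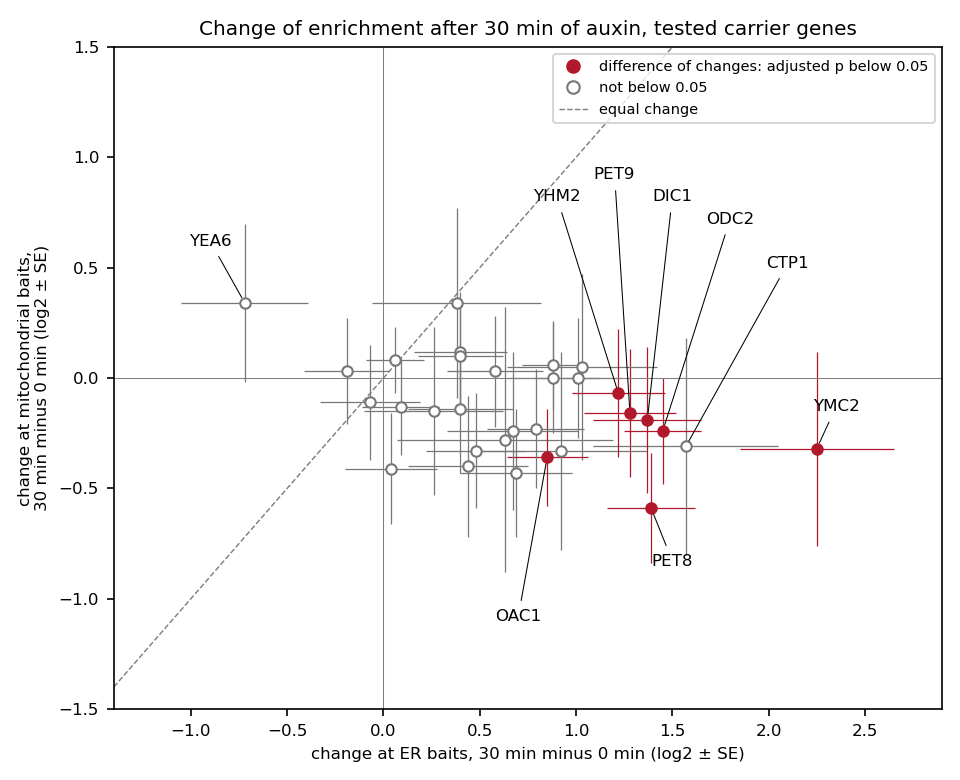
Fitted change of enrichment after 30 min of auxin at ER baits (horizontal) and at mitochondrial baits (vertical), log2 ± SE, for 31 carriers; CRC1 is left out because of its pulldown counts of 0. The 7 filled points, where the difference passed the test, lie to the right of 0.8 and below 0, and most carriers lie under the dashed line of equal change.

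Whole-cell footprints of the carriers also changed, which the inputs show without the baits. At 15 min 1 carrier had risen and none had fallen (edgeR, 2 series with a 15 min input), against 5.24% and 8.48% of all genes tested. That carrier was PIC2, with a change of 1.77 ± 0.32 (edgeR, adjusted p = 0.00339). Without the Sec63 series with CHX or without Ubc6 0 carriers passed, while without Tom20 2 did. Of all genes tested, 66, 38 and 274 rose in the same order, and 139, 43 and 488 fell. At 30 min 6 carriers had risen and 9 had fallen over the 5 series, against 21.8% and 23.9% of all genes. At 60 min 7 had risen and 12 had fallen over 3 series, against 30.6% and 28.2%, so that neither count is read as particular to the carriers.

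PIC2 (chromosome V, 258737 to 259639) had 8.73, 29.8, 25.8 and 31.7 CPM in the inputs of the Sec63 series with CHX at 0, 15, 30 and 60 min. It had 13.9, 52.9, 23.6 and 55.1 CPM in the Ubc6 series and 10.7, 39.2 and 32.5 CPM in the Sec63 series without CHX. All later inputs were above the 0 min input of their series, and the change at 60 min was 1.86 ± 0.27 (edgeR, adjusted p = 8.49e-05). AAC1 rose by 1.88 ± 0.34 at 60 min (edgeR, adjusted p = 0.000339), but unevenly, with 2.05, 0.22 and 2.22 in the Sec63 series with CHX, the Ubc6 series and the Sec63 series without CHX. YDL119C rose by 0.86 ± 0.18, MRS4 by 0.81 ± 0.13 and YFR045W (MRX20), a putative carrier, by 0.77 ± 0.22 (edgeR, adjusted p = 0.00102, 0.000108 and 0.00713).

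YMC2 had 30.8, 23.2, 13.8 and 7.80 CPM in the inputs of the Sec63 series with CHX at 0, 15, 30 and 60 min, 47.2, 18.0, 17.3 and 3.54 CPM in the Ubc6 series, and 34.0, 15.7 and 8.79 CPM in the Sec63 series without CHX. It was lower at each later time than at 0 min, and fell by 60 min with a change of -2.15 ± 0.29 (edgeR, adjusted p = 5.15e-05). AAC3 had a change of -2.07 ± 0.48 at 60 min (edgeR, adjusted p = 0.00283), but its Ubc6 input at 60 min held 1 count, against 23 at 0 min. YHM2 had 268, 211, 136 and 78.9 CPM in the Sec63 series with CHX, and its change at 60 min was -1.41 ± 0.14 (edgeR, adjusted p = 3.99e-06). CTP1 had -1.29 ± 0.30 (edgeR, adjusted p = 0.00283) and PET9 -0.96 ± 0.11 (edgeR, adjusted p = 1.43e-05), with values below 0 in all 3 series. None of the 6 carboxylate carriers rose in the inputs at 60 min, against 30.6% of all genes, and 4 fell (CTP1, YHM2, ODC2 and OAC1), against 28.2%.

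The carriers that gained ER enrichment and the input levels share the same input libraries, so their values are given side by side and not tested against each other. At 30 min the input change was -0.66 for CTP1, -0.50 for ODC2, -0.74 for YHM2 and -0.35 for PET9, while GGC1, which also gained ER enrichment, had an input change of 0.45. Without the Sec63 series with CHX 9 carriers passed among the inputs at 30 min, and of all genes tested 986 rose and 939 fell. With library totals 644 of all genes rose and 1779 fell at 30 min, against 1150 and 1265 with TMM scaling, and 16 carriers passed.

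**Figure D5:**
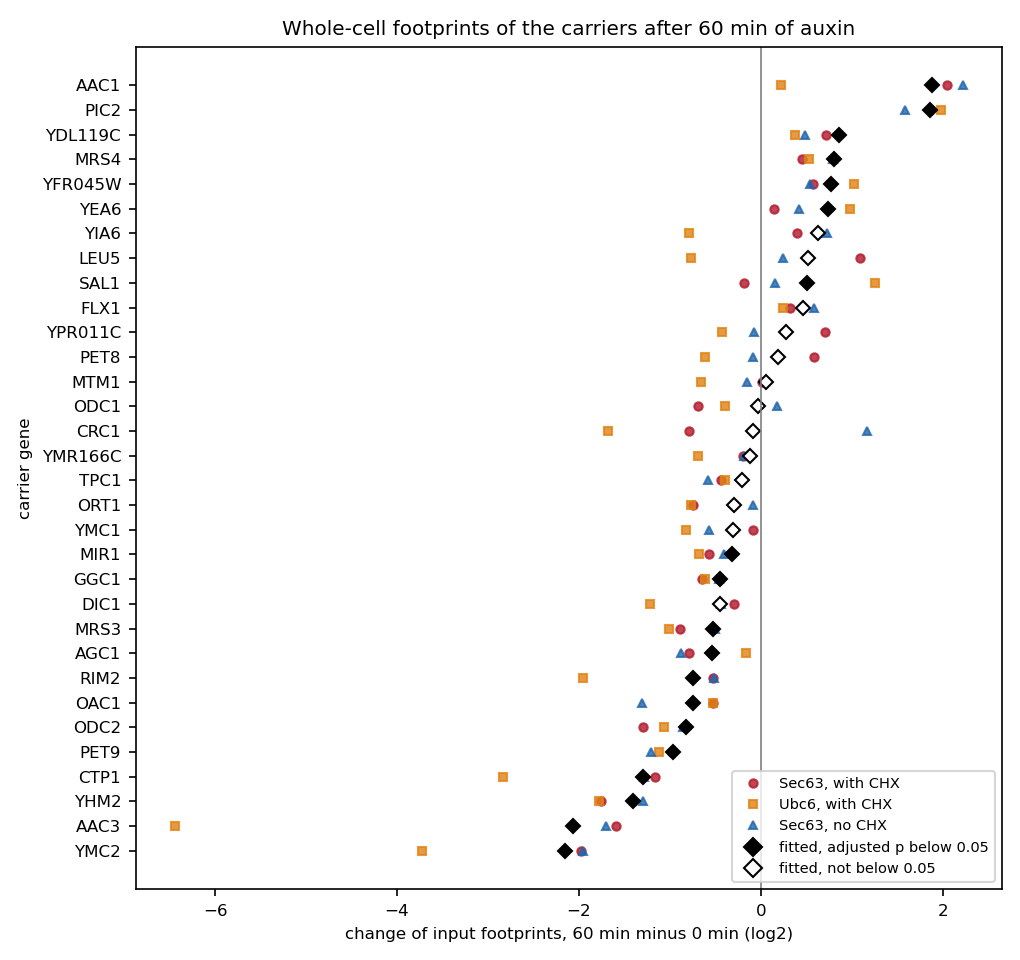
Change of input footprints (log2) between 60 and 0 min of auxin for the 32 tested carriers (rows) in 3 series (coloured symbols) with the fitted value (diamonds). AAC1 and PIC2 stand highest and AAC3 and YMC2 lowest; the AAC3 point of the Ubc6 series at -6.44 rests on 1 count at 60 min.

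The Ubc6 and Sec63 baits with CHX were compared over 4 matched times, which asks whether the ER baits see carriers alike. In edgeR 6 carriers were less enriched at Ubc6 than at Sec63 and none was more enriched, against 8.13% and 1.63% of all genes tested. The largest differences were those of YEA6 (-1.26 ± 0.26, edgeR, adjusted p = 0.0149), PET9 (-0.73 ± 0.14, edgeR, adjusted p = 0.012), YMC2 (-0.69 ± 0.19, edgeR, adjusted p = 0.0445), PET8 (-0.68 ± 0.16, edgeR, adjusted p = 0.0268) and DIC1 (-0.61 ± 0.14, edgeR, adjusted p = 0.0251), and each of these genes was lower at Ubc6 at 4 of 4 times. Without 0 min 8 carriers passed, without 15 min 0, without 30 min 1, without 60 min 0, and with library totals 1. Of all genes tested, 518, 41, 215 and 6 were lower with these times left out in the same order, and 124, 35, 50 and 32 higher. Library totals also turned the split over all genes, with 220 higher and 186 lower, against 86 and 430 with TMM scaling. Each bait is 1 series, so bait and series cannot be told apart, and the p-values measure consistency over matched times.

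Sec63 with CHX was compared with Sec63 without CHX at 0, 30 and 60 min. In edgeR 9 carriers were more enriched with CHX and none was less, against 19.2% and 6.43% of all genes. The largest were TPC1, the thiamine pyrophosphate carrier (1.82 ± 0.33, edgeR, adjusted p = 0.0132), AAC1 (1.54 ± 0.30, edgeR, adjusted p = 0.0182), LEU5 (1.36 ± 0.21, edgeR, adjusted p = 0.00818), OAC1 (1.21 ± 0.22, edgeR, adjusted p = 0.0134) and PET8 (1.13 ± 0.25, edgeR, adjusted p = 0.0265). The difference was not even over time. Its median over the carriers was -0.16 at 0 min, 0.47 at 30 min and 0.59 at 60 min, and PET9 had differences of -0.32, 1.23 and 1.28. Without the 0 min pairs 22 carriers passed, without 30 min 0 and without 60 min 1. Over all genes tested, 1419 were higher and 1018 lower without 0 min, 775 and 46 without 30 min, and 673 and 1 without 60 min. With library totals 1 carrier was higher and 4 were lower, and of all genes 731 were higher and 3032 lower, against 1013 and 340 with TMM scaling. The biotin pulse and the series differ along with CHX, so they cannot be told apart. Here too the p-values measure consistency over matched times.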

How the data were processed

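Every library (30 in all) came as a deposited table with a footprint count and an RPKM value for 5890 genes, per the file headers. Counts are the authors' aligned footprints per gene, and RPKM are the authors' counts per gene length and library total, per the file headers, used here only to set levels between genes. Per the submitters' processing notes, CASAVA, Bowtie 1.1.2, TopHat2 2.1.1 and the build sacCer3 were used. How molecular identifiers, strand and reads with several matches were treated is not given in the sources used here. Gene positions come from the RefSeq table of the same assembly, and sequences were not used here.

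Inputs and pulldowns were paired and grouped by the labels. The 5286 genes whose inputs averaged 20 counts or more went into 2-sided quasi-likelihood tests of edgeR 4.0.16 (R 4.3.3), with TMM scaling over the libraries of each fit, pairs as blocks and Benjamini-Hochberg adjustment over all genes tested at a threshold of 0.05. Baits at 0 min were fitted on 10 libraries, auxin changes jointly on 30, inputs on 15 with the series as a block, the ER baits on 16 and CHX on 12, with 3, 6, 7, 3 and 2 residual degrees of freedom. Standard errors come from the fitted weights and the quasi-dispersion. The ER changes are shared over the 3 ER series, and the mitochondrial change over 2. Ratios per pair used TMM factors of all 30 libraries and a prior count of 1, and have no error of their own. The fits were tested on simulated data.

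The members and lists were chosen with earlier results of these data known. Full statistics are given for up to 5 carriers with the largest change in each direction among those past the threshold, or for the 3 with the smallest p. Alternatives were DESeq2 1.42.0, other scalings, no filter, additive blocks, and leaving out each series or matched time. The scaling with TMM factors of all libraries was added after seeing the data.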

Additional observations from a re-analysis of the deposited data

Results flagged for a closer look

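For 7 carriers the change of enrichment after 30 min of auxin differed between mitochondrial and ER baits by the test of the difference itself (edgeR, 2 mitochondrial and 3 ER series). Mitochondrial minus ER, the difference was -2.58 for YMC2, -1.97 for PET8, -1.69 for ODC2, -1.56 for DIC1, -1.44 for PET9, -1.30 for YHM2 and -1.21 for OAC1. With any 1 of the Tom20, Om45, Sec63 (with CHX) or Ubc6 series left out, 0, 2, 2 and 3 of the 32 carriers passed. Of all genes tested, 18, 43, 55 and 64 were lower in the same order, and 218, 426, 374 and 492 higher. The values without Tom20 were -2.43 for YMC2 and -1.68 for PET8.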

How the results depend on the processing

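Over all 113 called differences of carriers and all alternatives run, 1 of 1184 values had the opposite sign: PIC2, CHX minus none, had -0.20 with library totals (adjusted p = 0.514), against 0.58 with TMM scaling. The count of carriers higher at mitochondrial baits at 0 min (27) ranged from 8 to 28 when each series was left out in turn and from 22 to 29 under the other settings. For ER enrichment, the count was 0 at 15 min, against 1 with DESeq2, 1 with library totals and 0 to 6 with a series left out. At 30 min it was 12, against 20 with library totals and 1 to 13 with a series left out. At 60 min it was 17, against 10 with DESeq2-type size factors, 8 when scaled on glycolysis and translation factor genes, and 2 to 16 with a series left out. For the difference of the mitochondrial and ER changes it was 7, against 13 with library totals, 4 with the glycolysis scaling, 2 with series and time as additive blocks, and 0 to 12 with a series left out. For inputs it was 1 at 15 min (0 to 2 with a series left out) and 15 at 30 min (9 to 17). For Ubc6 against Sec63 it was 6, against 2 with TMM factors of all libraries, 1 with library totals, and 0 to 8 with a time left out. For CHX it was 9, against 5 with TMM factors of all libraries, 5 with library totals (1 higher and 4 lower), and 0 to 22 with a time left out. The causes were not tested. Input counts at 60 min, the mitochondrial change at 30 min and the change from 30 to 60 min moved less than this, and median ratios per pair at 0 min were 2.77 to 2.78 and -0.35 with other prior counts.

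Library totals moved the median of all genes, to 0.46 from the TMM value of 0.15 for the ER change at 30 min and to -0.80 for CHX. Over all genes, 468 rose at ER baits at 30 min with TMM scaling, 1603 with library totals and 179 with the glycolysis scaling. TMM factors of all libraries also moved the split over all genes, to 916 higher and 1205 lower for CHX, 850 and 1586 for inputs at 30 min, 1110 and 1954 for inputs at 60 min (1616 and 1489 with TMM of the inputs), and 133 and 263 for Ubc6 against Sec63. Low counts limit the values of CRC1, SFC1 and AAC3, and those of further carriers in the Ubc6 series. Its 0 min input held 10 counts of AAC1, 11 of FLX1, 14 of OAC1, 15 of SAL1, and 17 each of TPC1 and YFR045W.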

Other observations

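SFC1, the succinate-fumarate carrier, was too rare to test. In the pulldowns at 0 min it had 46 counts at Tom20 and 221 at Om45, against 12 at Sec63 with CHX, 0 at Ubc6 and 11 at Sec63 without CHX. The inputs of the same pairs held 12 and 45 counts for the mitochondrial baits, against 3, 0 and 6 for the ER baits, and over all 15 inputs its counts lay between 0 and 49.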
